A study of Mus musculus with 12 samples.

Results

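Neurites and somas were compared in mouse hippocampal neurons under proteotoxic stress, with 3 RNA-seq libraries of MG132 neurites and 3 of MG132 somas, chosen by their titles among the 12 libraries of the series. The cultures came from hippocampi of newborn mice, C57BL/6 by the label of each library although the study's methods also name FVB, and had been kept for 17 to 18 days. They grew on the porous membrane of a Transwell insert, where cell bodies are meant to stay on the upper face. Neurites, which are axons and dendrites, grow through the pores to the lower face. MG132, a peptide aldehyde that blocks the proteasome, was given at 10 µM for 7 h, and the Ctrl cultures, used below for side-by-side values only, received the solvent DMSO. The labelled strain, the separation and the polyA selection were the same in all 4 groups. The fraction on the lower face also holds the processes of any glial cell that passes the pores, and the somas fraction also holds the neurites that lie on the upper face.

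Most RNAs of a neuron leave the nucleus and remain close to it, while a subset is carried by motor proteins along microtubules and translated locally in dendrites and axons. RNAs known for this include those for cytoskeletal and synaptic proteins and, in many neuron types, for ribosomal and mitochondrial proteins. Inhibition of the proteasome lets misfolded proteins build up, and cells then raise RNAs for chaperones, which fold proteins, and for the proteasome itself. The comparison asks which RNAs lay in neurites and which in somas once this response had begun.

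The Bc1 RNA, a short noncoding RNA that is a classic cargo of dendrites and binds translation factors, was among the RNAs that were higher in neurites and is short enough to be shown whole. It lies at chr7:144914470-144914637 on the plus strand (GRCm38, GENCODE M21, one exon, 168 bases), and its longest run of A is in capitals. It was named after its values were seen.
Bc1: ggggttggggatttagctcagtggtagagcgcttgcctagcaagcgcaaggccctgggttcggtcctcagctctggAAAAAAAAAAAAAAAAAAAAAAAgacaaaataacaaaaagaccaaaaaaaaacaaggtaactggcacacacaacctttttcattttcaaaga

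Among the RNAs that were higher in somas, those for the axoneme, the motor-bearing core of motile cilia, are shown by a stretch of their promoters. RFX factors, which drive cilium genes, bind the X-box. Only a part of it, the 6 bases GTTGCC, was searched on both strands in RefSeq windows (GRCm38.p6), and a whole X-box was not searched for. The windows run from 250 bases before to 50 bases after a transcript start, of which Tekt1 has 2 there, and the one shown lies inside the annotated gene. Capitals mark these 6 bases or their reverse complement in 4 genes called lower in neurites, also named after their values were seen.
Dnah10, chr5:124725053-124725082, plus strand: cgcgctggcgccGTTGCCcaggtccccgtt
Hydin, chr8:110266947-110266976, plus strand: cactctgcggttgctgtGGCAACagatggt
Cfap44, chr16:44394768-44394797, plus strand: ggacgttgctatGGCAACcgcagtaaacgg
Tekt1, chr11:72361883-72361912, minus strand: cgttgcgtccgtccgGTTGCCatagagacc

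Reads counted on genes numbered 4247610 to 18411436 in the MG132 somas libraries and 6545752 to 22166347 in the MG132 neurites libraries. Genes of the mitochondrial genome took 9.78% to 16.1% of the counts in somas and 13.5% to 29% in neurites. A further 14.1% to 23.3% and 17.0% to 33.4% went to 1 gene, Entrez gene 100861531, which had no symbol in the annotation used. Levels are therefore given as CPM, the share of a library's counts scaled to a common size, after scaling by TMM, which sets the bulk of genes equal, and a log2 ratio of neurites to somas is a difference relative to that bulk. The median log2 ratio of the 14185 tested genes was -0.08 on this scale, -0.86 on plain total counts and -0.51 on totals without mitochondrial genes and without genes above 10% of a library. In these bulk samples fewer cells of a type and less RNA per cell cannot be told apart. On the first principal component, which held 40.4% of the variance, the 3 neurites libraries lay at 40.8 to 72.6 and the 3 somas libraries at -79.9 to -30.7.

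After MG132, 1615 genes (11.4% of those tested) were higher in neurites and 901 (6.35%) were lower, at an adjusted p under 0.05 in edgeR's quasi-likelihood test. Of these, 1592 and 872 had no overlap between the 3 libraries of either fraction, while such separation without regard to the test was found for 18.9% of all tested genes in the higher direction and 17.9% in the lower. At an adjusted p under 0.01 and a log2 ratio beyond 1.7, 290 genes (2.04%) were higher and 72 (0.508%) were lower. Somas and neurites libraries of the same number deviated together, and with that number as a block the counts were 2142 and 1660. On total counts the split was 300 higher and 4340 lower, and on totals without mitochondrial and dominant genes it was 861 and 3116. The lower count also rested on single libraries, at 366 without MG132 somas replicate 1, 529 without MG132 somas replicate 3, 520 without MG132 neurites replicate 2 and 480 without MG132 neurites replicate 3. The higher count was 1184 to 1561 when any 1 library was left out. Counts within the gene groups below are to be read against 11.4% higher and 6.35% lower among all tested genes. The genes named in them were mostly kept for stability in these same libraries, so their lack of overlap was favoured by the choice.

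**Figure D1:**
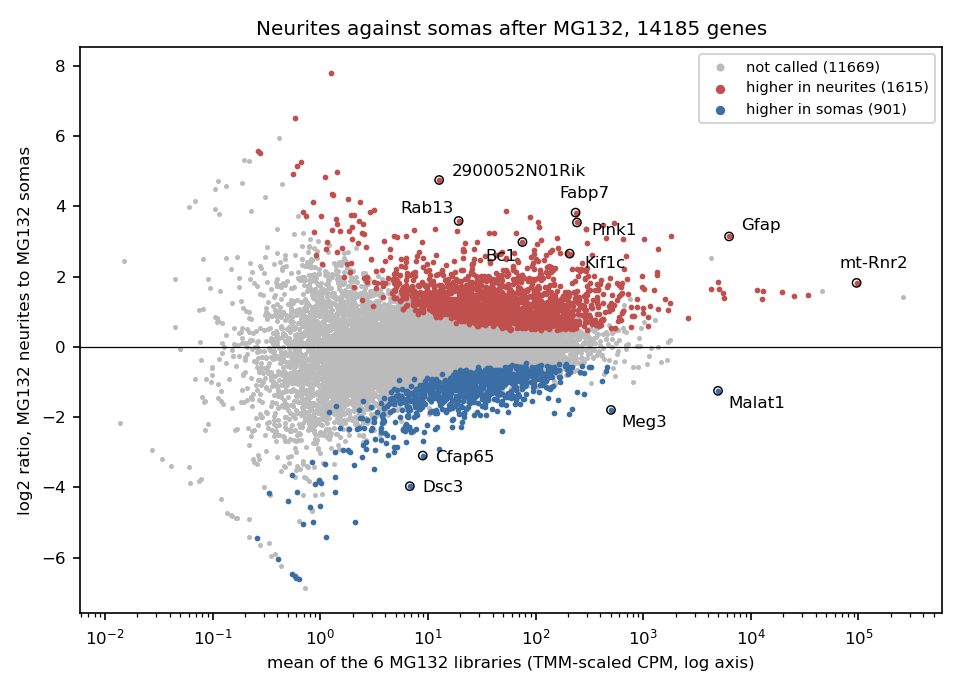
Log2 ratio of MG132 neurites to MG132 somas (y axis) against the mean of the 6 libraries in TMM-scaled CPM (x axis, log scale), 1 point for each of 14185 genes. Red points (1615) were called higher in neurites and blue points (901) higher in somas, and calls with small ratios occurred at high levels.

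The largest ratios toward neurites, among genes with at least 5 CPM in the higher group, included Rab13, Pink1 and the glial genes Fabp7 and Ndrg2. Rab13 (chr3:90213715-90226387, GRCm38), a small GTPase of vesicle traffic whose mRNA is a known cargo of cell protrusions, had 2.4, 3.37 and 3.2 CPM in the 3 somas libraries and 24.9, 43.8 and 38 CPM in the 3 neurites libraries (log2 ratio of 3.58 ± 0.31, adjusted p = 4.46e-06). Pink1 (chr4:138313409-138326296), the kinase that marks damaged mitochondria and whose mRNA travels on mitochondria in neurons, had 39.3, 29.9 and 45.3 CPM in the 3 somas libraries and 403, 494 and 441 CPM in the 3 neurites libraries (log2 ratio of 3.54 ± 0.22, adjusted p = 4.2e-07). For both genes the lowest neurites library was more than 7 times the highest somas library. Rflnb, an actin-binding partner of filamin, had 4.72, 9.52 and 6.85 CPM in the 3 somas libraries and 60.9, 171 and 68.2 CPM in the 3 neurites libraries (log2 ratio of 3.88 ± 0.38, adjusted p = 8.65e-06). Rida, an imine deaminase of amino acid metabolism, had 8.6, 18.8 and 11.4 CPM in the 3 somas libraries and 135, 251 and 105 CPM in the 3 neurites libraries (log2 ratio of 3.69 ± 0.36, adjusted p = 8.65e-06). The level of Rflnb in neurites replicate 2 stood above the other neurites libraries, and no library of the fractions overlapped for either gene. Fabp7, a fatty acid binding protein of radial glia and astrocytes, had 20.5, 59.1 and 16 CPM in the 3 somas libraries and 233, 869 and 214 CPM in the 3 neurites libraries (log2 ratio of 3.82 ± 0.68, adjusted p = 0.00129). Ndrg2, an abundant astrocyte RNA, had 81, 83.3 and 90.1 CPM in the 3 somas libraries and 911, 1181 and 844 CPM in the 3 neurites libraries (log2 ratio of 3.53 ± 0.20, adjusted p = 3.41e-07). These 2 glial RNAs also separated without overlap, Ndrg2 with the smaller spread. The remaining 4 of the 10 were the long noncoding RNAs 2900052N01Rik (4.75 ± 0.83), Abhd11os (3.82 ± 0.73) and E030003E18Rik (3.54 ± 0.37) and the membrane protein gene Smim1 (3.90 ± 0.69). In the 3 somas libraries 2900052N01Rik had 13, 13 and 0 counts, Abhd11os 4, 3 and 7, and Smim1 5, 0 and 13. These 3 ratios therefore rest on few reads in somas. Abhd11os lies opposite Abhd11, and reads in any stretch that the pair shares cannot be told apart, since the counting ignored strand. Bc1 had 19.5, 13.5 and 17.4 CPM in the 3 somas libraries and 170.4, 110.4 and 122 CPM in the 3 neurites libraries (log2 ratio of 2.98 ± 0.28, adjusted p = 5.93e-06), and its lowest neurites value was over 5 times its highest somas value.

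**Figure D2:**
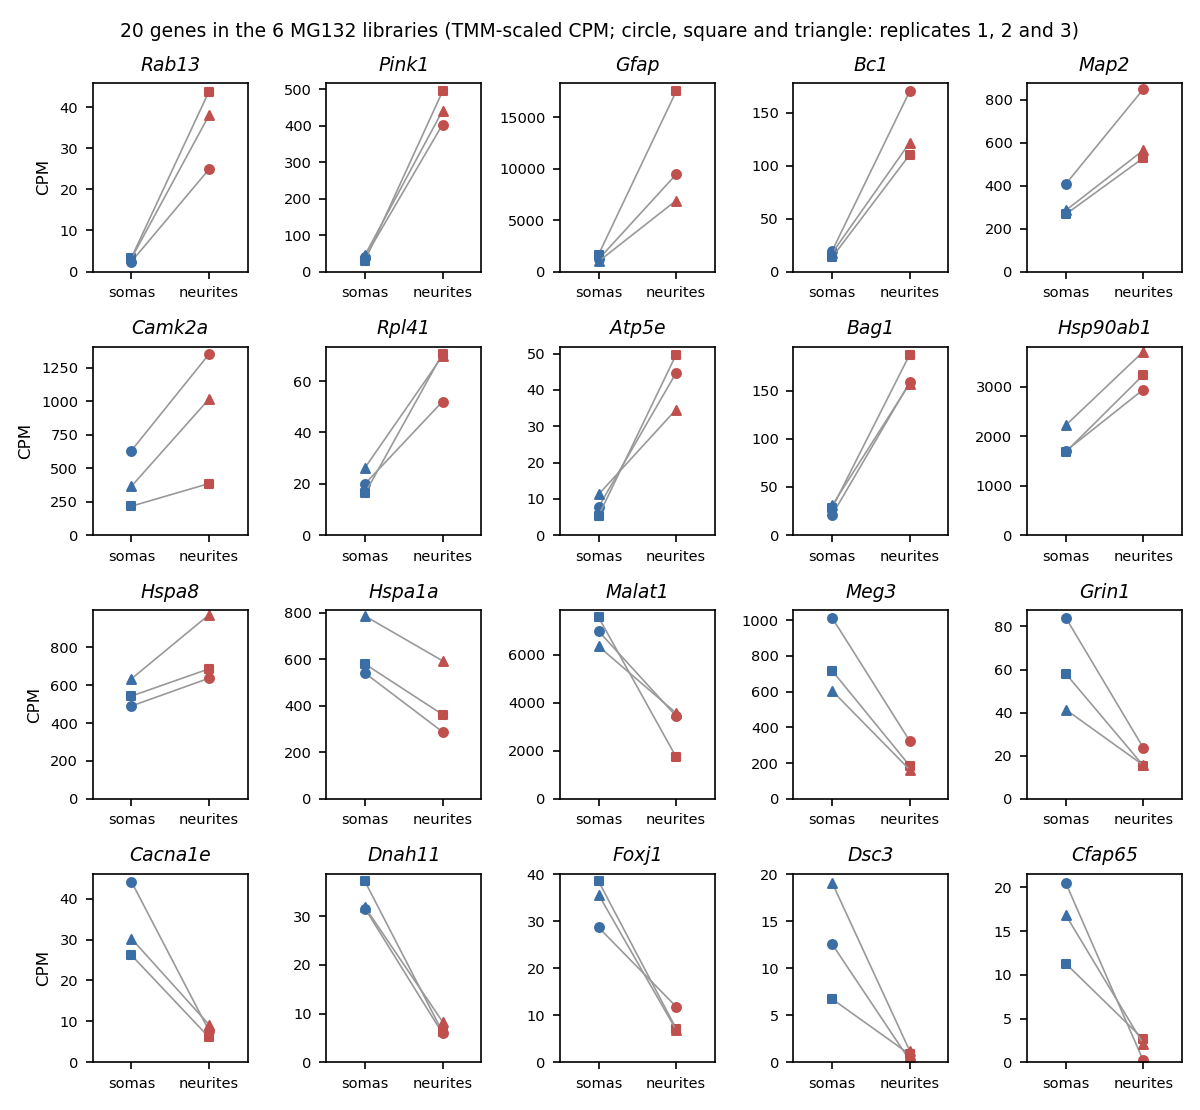
Levels of 20 genes in TMM-scaled CPM (y axes from 0) in the 3 MG132 somas (blue) and 3 MG132 neurites libraries (red), with lines joining libraries of the same replicate number. Rab13, Pink1, Gfap, Bc1 and Bag1 were separated widely, Camk2a and Hspa1a overlapped between the fractions, and the lowest neurites value of Hspa8 lay just above its highest somas value.

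The largest ratios toward somas belonged to genes at low levels. Dsc3, a cadherin of desmosomes, had 12.6, 6.74 and 19.1 CPM in the 3 somas libraries and 0.228, 0.859 and 1.24 CPM in the 3 neurites libraries (log2 ratio of -3.97 ± 0.49, adjusted p = 5.56e-05). Cfap65, a protein of the ciliary axoneme, had 20.5, 11.3 and 16.9 CPM in the 3 somas libraries and 0.228, 2.67 and 2.13 CPM in the 3 neurites libraries (log2 ratio of -3.10 ± 0.49, adjusted p = 0.000501). Cdhr4, a cadherin-related gene, had 15.4, 19 and 32.8 CPM in the 3 somas libraries and 2.05, 2.31 and 4.79 CPM in the 3 neurites libraries (log2 ratio of -2.91 ± 0.41, adjusted p = 0.000179), with 40.9% of the 75-base windows of its transcript also found in other genes. In none of these did a neurites library reach a somas library, and the neurites values stayed under 5 CPM. The others were Zbbx (-3.09 ± 0.63), Spata18 (-2.99 ± 0.68), Map3k19 (-2.95 ± 0.58), Cdhr3 (-2.73 ± 0.43), Frmpd2 (-2.71 ± 0.64), the serotonin receptor Htr4 (-3.48 ± 0.96) and Efcab6 (-2.85 ± 0.94). Of these calls, Htr4 and Efcab6 had the widest standard errors. Htr4 passed 0.05 no longer without MG132 somas replicate 1 (adjusted p = 0.130), MG132 neurites replicate 1 (0.0524) or MG132 neurites replicate 2 (0.0948). Efcab6 lost its call in each such fit but the one without MG132 neurites replicate 1, with adjusted p-values of 0.0606 to 0.162.

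Most RNAs that stay in the nucleus were lower in neurites. Of 16 tested nuclear long noncoding RNAs, 10 were lower and 2 were higher, Gas5 and Pvt1, of which Gas5 is spliced and found in the cytoplasm, and the median log2 ratio was -1.35 against -0.08 for all tested genes. The lower count was 6 without MG132 somas replicate 1, and the higher count was 1 without MG132 neurites replicate 2, MG132 somas replicate 1 or MG132 somas replicate 2. Malat1 (chr19:5795690-5802672), a marker of nuclear speckles, had 6995, 7576 and 6362 CPM in the 3 somas libraries and 3452, 1746 and 3579.6 CPM in the 3 neurites libraries (log2 ratio of -1.25 ± 0.31, adjusted p = 0.0122). Meg3, an imprinted nuclear RNA, had 1014, 717 and 605 CPM in the 3 somas libraries and 325, 185 and 163 CPM in the 3 neurites libraries (log2 ratio of -1.8 ± 0.32, adjusted p = 0.00129). Neat1, the scaffold of paraspeckles, had 309.7, 166 and 222 CPM in the 3 somas libraries and 80.3, 38.9 and 69.6 CPM in the 3 neurites libraries (log2 ratio of -1.90 ± 0.28, adjusted p = 0.000276). The fractions did not overlap for any of the 3. Srrm2, an mRNA for a speckle protein, had 569.8, 567 and 525 CPM in the 3 somas libraries and 309, 318 and 393 CPM in the 3 neurites libraries (log2 ratio of -0.70 ± 0.16, adjusted p = 0.0069). It separated without overlap too, and the 4 RNAs were lower on each scaling tried. Malat1, Meg3 and Neat1 were still measured in each neurites library. Whether nuclei or cell bodies lay in that fraction was not tested.

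Markers of cell types were read for both fractions, since the label names neurons. All 15 neuron markers were tested, their summed level was 1289 to 2045 CPM in somas and 1137 to 1963 CPM in neurites, and none was at 0 in either fraction. One of them, Map2, was higher in neurites and 4 were lower (Gad1, Stmn2, Syp and Syt1), with a median of -0.63. The 4 lower calls were 0 without MG132 neurites replicate 2 or MG132 somas replicate 1, 1 without MG132 neurites replicate 3, 2 without MG132 somas replicate 2 and 8 with the replicate block. The 16 astrocyte markers summed to 3698 to 4598 CPM in somas and 12694 to 23711 CPM in neurites, with 8 higher, 1 lower and a median of 0.94 (0.19 on total counts), and 1 of them, Gjb6, was at 0 in each somas library. With the block 12 were higher and 2 lower. Gfap (chr11:102887336-102897200), the intermediate filament of astrocytes, had 1197, 1649 and 986 CPM in the 3 somas libraries and 9426, 17484 and 6893 CPM in the 3 neurites libraries (log2 ratio of 3.14 ± 0.36, adjusted p = 3.04e-05). S100b, a calcium-binding protein of astrocytes, had 20.1, 27.6 and 26.1 CPM in the 3 somas libraries and 203, 241.6 and 154 CPM in the 3 neurites libraries (log2 ratio of 3.03 ± 0.23, adjusted p = 1.83e-06). Aldh1l1, a folate enzyme of astrocytes, had 12.4, 22.4 and 9.51 CPM in the 3 somas libraries and 36.7, 45.1 and 37.3 CPM in the 3 neurites libraries (log2 ratio of 1.47 ± 0.30, adjusted p = 0.00311). All 3 were higher in each neurites library than in any somas library, while Gja1, the gap junction protein of the same cells, was called lower. The 11 tested markers of dividing and progenitor cells summed to 890.2 to 1667 CPM and 3207 to 5334 CPM, with 5 higher (Cdk1, Fabp7, Nes, Pax6 and Vim), 0 lower and a median of 2.04. Several of these are also made by astrocytes in culture. Nes, an intermediate filament of progenitors and reactive astrocytes, had 436, 789 and 369 CPM in the 3 somas libraries and 2065, 2803 and 1666 CPM in the 3 neurites libraries (log2 ratio of 2.04 ± 0.32, adjusted p = 0.000464). Pax6, a progenitor transcription factor, had 2.31, 0.198 and 3.81 CPM in the 3 somas libraries and 17.3, 10.4 and 12.6 CPM in the 3 neurites libraries (log2 ratio of 2.46 ± 0.46, adjusted p = 0.00169). The astrocyte RNAs moved with the neurites fraction, and their part in the other results was not tested.

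**Figure D3:**
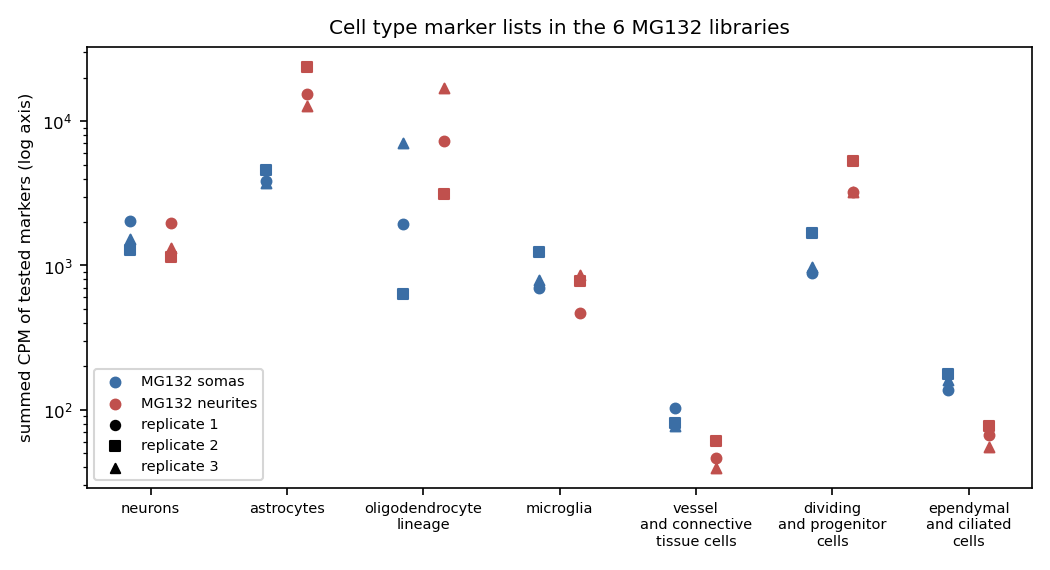
Summed TMM-scaled CPM (y axis, log scale) of the tested markers of 7 cell types in each MG132 library, somas in blue and neurites in red. Astrocyte and progenitor sums were higher in every neurites library than in any somas library, ciliated cell and vessel sums were lower, and neuron sums overlapped.

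Markers of other glia were measured in both fractions. The 14 oligodendrocyte lineage markers summed to 631 to 7047 CPM in somas and 3141 to 17095 CPM in neurites, with 0 called in either direction, and 2 higher and 2 lower with the block. Mbp, the myelin protein whose mRNA is carried into oligodendrocyte processes, had 773, 207 and 2795 CPM in the 3 somas libraries and 5705, 2323 and 13631 CPM in the 3 neurites libraries (log2 ratio of 2.52 ± 0.88, adjusted p = 0.0605). Its level was higher in neurites in each same-numbered pair but differed widely between replicate numbers. With the replicate block the adjusted p was 8.89e-10. Without MG132 somas replicate 3 (0.0125) or MG132 neurites replicate 2 (0.0441) Mbp also passed. The 16 microglia markers summed to 700.1 to 1247 CPM and 469 to 865 CPM, with 0 called, and 2 lower with the block. Of 11 tested markers of vessel and connective tissue cells, Acta2 was higher and Col1a1 lower, at sums of 77.8 to 102 CPM and 39.8 to 60.4 CPM. Col1a1 kept its call only without MG132 somas replicate 2 among the 6 leave-one-out fits, and 4 of these markers were lower with the block.

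The translation machinery lay toward neurites, read against 11.4% higher and 6.35% lower among all tested genes. Of 78 tested mRNAs for cytoplasmic ribosomal proteins, 40 were higher and 0 were lower, with a median log2 ratio of 1.17 against -0.08 for all tested genes (0.41 on total counts, where 1 was called). Rps21, of the small subunit, had 17.8, 14.9 and 29.4 CPM in the 3 somas libraries and 70, 79.9 and 82.9 CPM in the 3 neurites libraries (log2 ratio of 1.89 ± 0.40, adjusted p = 0.0041). Rps20, of the same subunit, had 9.25, 3.57 and 12.8 CPM in the 3 somas libraries and 23.5, 34.9 and 38.2 CPM in the 3 neurites libraries (log2 ratio of 1.87 ± 0.38, adjusted p = 0.0032). Rpl41, the shortest protein of the large subunit, had 20, 16.3 and 26.2 CPM in the 3 somas libraries and 52, 70.7 and 69.8 CPM in the 3 neurites libraries (log2 ratio of 1.61 ± 0.24, adjusted p = 0.000285). All 3 separated without overlap. Rpl15 had 23.2, 20.8 and 19.1 CPM in the 3 somas libraries and 68.7, 59.6 and 63.2 CPM in the 3 neurites libraries (log2 ratio of 1.60 ± 0.21, adjusted p = 0.000121), and 29.3% of its windows also occurred in other genes, so that its counts are uncertain. Of 68 translation factors, 23 were higher and 0 lower, with a median of 0.46. On total counts the median turned to -0.31, with 5 higher and 6 lower. Pabpc1, the poly(A)-binding protein, had 238.2, 268 and 307 CPM in the 3 somas libraries and 728, 988 and 1022 CPM in the 3 neurites libraries (log2 ratio of 1.75 ± 0.24, adjusted p = 0.000151). Eif3a, the largest subunit of initiation factor eIF3, had 445, 497 and 541 CPM in the 3 somas libraries and 1533, 1534 and 1582 CPM in the 3 neurites libraries (log2 ratio of 1.65 ± 0.20, adjusted p = 4.37e-05). Both were about 3 times higher in neurites. The initiation factor Eif1ax (1.67 ± 0.16) and the elongation factor subunit Eef1b2 (1.92 ± 0.22) had ratios of like size. When 1 library was left out, the count of higher genes was 31 to 40 for ribosomal proteins and 17 to 22 for translation factors.

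Respiratory chain mRNAs lay toward neurites from both genomes, read against 11.4% higher and 6.35% lower among all tested genes. Of 79 tested genes encoded in the nucleus, 42 were higher and 0 lower, with a median of 0.89 (0.09 on total counts, where 3 were called higher and 1 lower). Atp5e, a small subunit of ATP synthase, had 7.77, 5.35 and 11.2 CPM in the 3 somas libraries and 44.7, 49.7 and 34.6 CPM in the 3 neurites libraries (log2 ratio of 2.37 ± 0.26, adjusted p = 2.42e-05). Cox7a2l, which joins respiratory complexes, had 20.9, 11.9 and 19.6 CPM in the 3 somas libraries and 52, 67.2 and 64.3 CPM in the 3 neurites libraries (log2 ratio of 1.79 ± 0.28, adjusted p = 0.000386). Uqcrb, of complex III, had 7.95, 9.91 and 12.5 CPM in the 3 somas libraries and 31.9, 33.4 and 38.7 CPM in the 3 neurites libraries (log2 ratio of 1.77 ± 0.30, adjusted p = 0.000915). Each of these 3 was at least 2 times higher in the lowest neurites library than in the highest somas library. Of 13 mRNAs of the mitochondrial genome, 8 were tested and all 8 were higher, with a median of 1.59 (0.73 on total counts, where 0 passed the test). COX2, COX3, ATP6 and ATP8 were listed at 0 in each library, and ND4L had at most 13 counts. COX1, of complex IV, had 12412, 7341 and 10240.0 CPM in the 3 somas libraries and 36928, 21929 and 28969.8 CPM in the 3 neurites libraries (log2 ratio of 1.55 ± 0.34, adjusted p = 0.00526). CYTB, of complex III, had 8832, 4737 and 6018 CPM in the 3 somas libraries and 27181, 15256 and 16254 CPM in the 3 neurites libraries (log2 ratio of 1.58 ± 0.37, adjusted p = 0.00814). ND6, the only mRNA encoded on the light strand, had 2654, 1563 and 1973 CPM in the 3 somas libraries and 8373, 5149 and 6029 CPM in the 3 neurites libraries (log2 ratio of 1.66 ± 0.30, adjusted p = 0.00146). The ratios of ND5 (1.62 ± 0.35) and ND4 (1.66 ± 0.34) were close to these, and windows shared with nuclear copies covered 39.8% of COX1 and 61.5% of ND4. With 1 library left out, 6 to 8 of them were called.

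**Figure D4:**
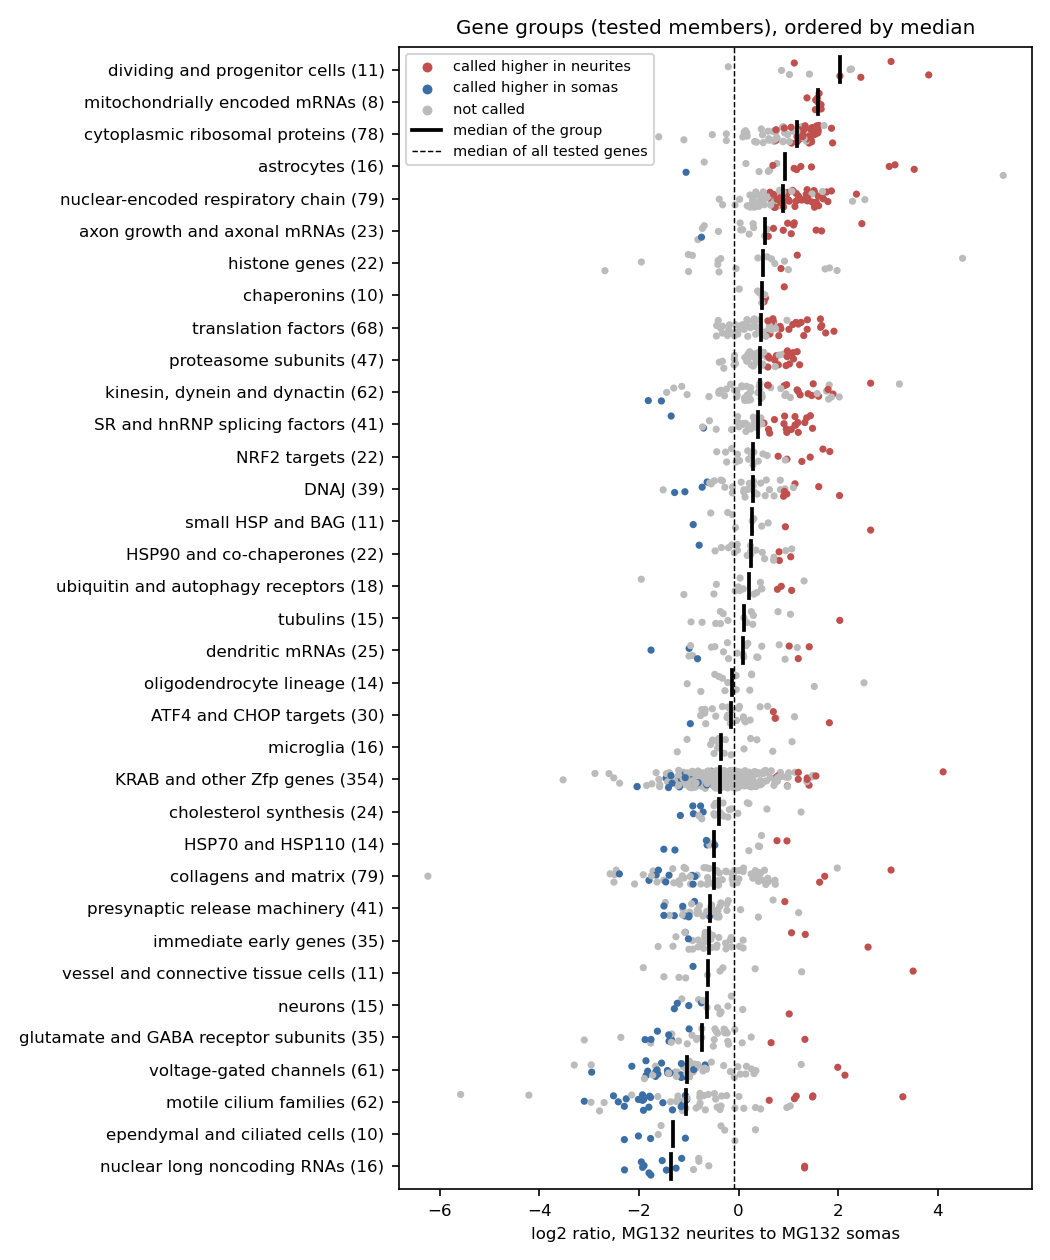
Log2 ratio of MG132 neurites to MG132 somas (x axis) for the tested members of 35 gene groups, 1 point per gene, red where called higher in neurites, blue where called higher in somas, grey where not called, with the group median as a black bar. Mitochondrial, ribosomal and progenitor groups had medians above 1, and nuclear RNAs, ciliated cell genes and voltage-gated channels had medians below -1.

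Known dendritic mRNAs were called in both directions, against 11.4% higher and 6.35% lower among all tested genes. Of 25 tested, 3 were higher (Eef1a1, Map2 and Shank3) and 3 were lower (Cpeb1, Grin1 and Homer1), with a median of 0.09 (-0.79 on total counts, where 0 were higher and 12 lower). With the replicate block the counts were 7 and 6. The lower count was 1 without MG132 somas replicate 1. Camk2a, the kinase of postsynaptic plasticity, had 631, 216 and 365 CPM in the 3 somas libraries and 1349.6, 385 and 1015 CPM in the 3 neurites libraries (log2 ratio of 1.18 ± 0.52, adjusted p = 0.138). It was higher in each of the 3 pairs, the fractions overlapped, and with the block the adjusted p was 1.54e-05. Shank3, a scaffold of the postsynaptic density, had 32.3, 23.6 and 23.6 CPM in the 3 somas libraries and 77.8, 52.9 and 83.1 CPM in the 3 neurites libraries (log2 ratio of 1.42 ± 0.33, adjusted p = 0.00786). Map2, the dendritic microtubule protein, had 408, 267 and 285 CPM in the 3 somas libraries and 849.8, 529 and 565 CPM in the 3 neurites libraries (log2 ratio of 1.02 ± 0.26, adjusted p = 0.0148). Without MG132 neurites replicate 1 (adjusted p = 0.0724) or MG132 somas replicate 2 (0.0616) Map2 no longer passed. Grin1, the obligate subunit of NMDA receptors, had 84.1, 58.1 and 41.4 CPM in the 3 somas libraries and 23.7, 15.4 and 15.6 CPM in the 3 neurites libraries (log2 ratio of -1.76 ± 0.30, adjusted p = 0.000895). Actb, the cytoplasmic actin, had 273, 291 and 332 CPM in the 3 somas libraries and 270.3, 331 and 394 CPM in the 3 neurites libraries (log2 ratio of 0.15 ± 0.18, adjusted p = 0.625), and its ratio turned negative on both other scalings. Eef1a1 had a ratio of 1.20 ± 0.20, but 41.7% of its windows occurred in other genes.

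Axon and motor genes were read against 11.4% higher and 6.35% lower among all tested genes. Of 23 mRNAs for axon growth or known from axons, 10 were higher and 1 was lower (Stmn2), with a median of 0.53. On total counts the median turned to -0.28, with 2 higher and 6 lower. Stmn2 kept its call only without MG132 neurites replicate 1 among the leave-one-out fits, and with the block 4 were lower. Gap43, a growth cone protein, had 15.4, 30.5 and 16.5 CPM in the 3 somas libraries and 72.1, 165 and 103 CPM in the 3 neurites libraries (log2 ratio of 2.48 ± 0.43, adjusted p = 0.00109). Sod1, a superoxide dismutase, had 51.1, 37.5 and 57.9 CPM in the 3 somas libraries and 147, 169 and 152 CPM in the 3 neurites libraries (log2 ratio of 1.67 ± 0.19, adjusted p = 2.75e-05). Both separated without overlap. Vim, also an astrocyte and progenitor marker, had 400.2, 722 and 549.8 CPM in the 3 somas libraries and 861, 1481 and 1289 CPM in the 3 neurites libraries (log2 ratio of 1.12 ± 0.26, adjusted p = 0.00698). Among 62 motor protein genes, 14 were higher and 2 were lower, Kif9 and Kif19a, with a median of 0.42 (-0.39 on total counts, where 3 were higher and 14 lower). The lower count was 6 with the block and 1 without MG132 neurites replicate 3, MG132 somas replicate 1 or MG132 somas replicate 3. Kif1c, a kinesin that binds RNA and carries it to protrusions, had 54.8, 56.9 and 59 CPM in the 3 somas libraries and 329, 408 and 337 CPM in the 3 neurites libraries (log2 ratio of 2.65 ± 0.20, adjusted p = 1.83e-06). Dynll2, a dynein light chain, had 189, 178 and 147 CPM in the 3 somas libraries and 599, 855 and 459 CPM in the 3 neurites libraries (log2 ratio of 1.90 ± 0.22, adjusted p = 3.04e-05). Dync1li2, a light intermediate chain of dynein, had 149, 152 and 194 CPM in the 3 somas libraries and 510.1, 628 and 587 CPM in the 3 neurites libraries (log2 ratio of 1.8 ± 0.19, adjusted p = 2.01e-05). For these motors each neurites library was about 3 to 7 times the somas library of its number. Kif9, a kinesin of motile cilia, went the other way with 20.3, 27.4 and 19.5 CPM in the 3 somas libraries and 7.07, 6.15 and 5.86 CPM in the 3 neurites libraries (log2 ratio of -1.81 ± 0.27, adjusted p = 0.000276). Of 15 tubulins 1 was called, Tubb2b (2.03 ± 0.35), of whose windows 32.2% were shared with other genes, and with the block 1 was lower.

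RNAs for electrical and synaptic membrane proteins lay toward somas, read against 11.4% higher and 6.35% lower among all tested genes. Of 61 voltage-gated channel genes, 19 were lower and 2 higher, with a median of -1.04 against -0.08 for all tested genes, and the lower count was 9 without MG132 somas replicate 1, 12 without MG132 neurites replicate 2, 11 without MG132 neurites replicate 3 and 30 with the replicate block. The higher count was 0 without MG132 somas replicate 3 and 1 in each other leave-one-out fit. Hcn3, Kcnh3 and Cacng4, left out as less stable, lost their calls in 5, 5 and 2 of the 6 leave-one-out fits. Cacna1e, the R-type calcium channel, had 44.1, 26.2 and 30.2 CPM in the 3 somas libraries and 7.76, 6.15 and 9.23 CPM in the 3 neurites libraries (log2 ratio of -2.14 ± 0.30, adjusted p = 0.000162). Of 35 receptor subunits for glutamate and GABA, 7 were lower and 2 higher (Gria3 and Grm3), with a median of -0.74. The lower count was 11 with the block and 4 without MG132 neurites replicate 2, MG132 neurites replicate 3 or MG132 somas replicate 1, and the higher count was 0 without MG132 neurites replicate 2 or MG132 somas replicate 2 and 1 without MG132 neurites replicate 3, MG132 somas replicate 1 or MG132 somas replicate 3. Grin2b, an NMDA receptor subunit, had 39.3, 32.3 and 29.1 CPM in the 3 somas libraries and 10.7, 4.66 and 13 CPM in the 3 neurites libraries (log2 ratio of -1.88 ± 0.38, adjusted p = 0.00307). Gabrb2, a GABA-A receptor subunit, had 51.8, 44.6 and 55.1 CPM in the 3 somas libraries and 22.1, 9.36 and 18.8 CPM in the 3 neurites libraries (log2 ratio of -1.63 ± 0.30, adjusted p = 0.00146). No library overlapped between the fractions for Cacna1e, Grin2b or Gabrb2. Of 41 presynaptic genes, 9 were lower and 1 was higher (Erc1), with a median of -0.58. This lower count was 20 with the block, 2 without MG132 somas replicate 1, 4 without MG132 neurites replicate 2 and 5 without MG132 neurites replicate 3, and 2 were higher with the block or without MG132 neurites replicate 2. Unc13a, which primes synaptic vesicles, had 129.7, 89 and 72.2 CPM in the 3 somas libraries and 43.8, 28.6 and 31.2 CPM in the 3 neurites libraries (log2 ratio of -1.50 ± 0.32, adjusted p = 0.00428). Unc13a was the more stable choice, since Sv2b and Bsn lost their calls in 4 of the 6 leave-one-out fits and Syt1 in 2.

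Genes of motile cilia, which in brain mark ependymal cells, lay toward somas, read against 11.4% higher and 6.35% lower among all tested genes. All 10 markers of ependymal and ciliated cells were tested, with sums of 137 to 176 CPM in somas and 54.9 to 77.6 CPM in neurites, none at 0, and 4 lower, 0 higher and a median of -1.31. Foxj1, the master regulator of motile cilia, had 28.7, 38.5 and 35.6 CPM in the 3 somas libraries and 11.9, 7.19 and 6.92 CPM in the 3 neurites libraries (log2 ratio of -2.01 ± 0.27, adjusted p = 0.000114). Dnah11, an outer arm dynein, had 31.5, 37.1 and 31.8 CPM in the 3 somas libraries and 5.93, 6.24 and 8.34 CPM in the 3 neurites libraries (log2 ratio of -2.29 ± 0.24, adjusted p = 1.9e-05). Dnah5, another outer arm dynein, had 35, 39.7 and 29.1 CPM in the 3 somas libraries and 11.6, 7.28 and 12.1 CPM in the 3 neurites libraries (log2 ratio of -1.77 ± 0.27, adjusted p = 0.000328). These 3 were higher in every somas library than in any neurites library. In a wider set of 62 genes taken by family name after the values were seen, 19 were lower and 6 higher, with a median of -1.06, and the higher count was 3 without MG132 neurites replicate 1 or MG132 somas replicate 2. Dnah12, an inner arm dynein, had 18.1, 12.5 and 15.6 CPM in the 3 somas libraries and 4.79, 1.85 and 2.66 CPM in the 3 neurites libraries (log2 ratio of -2.41 ± 0.42, adjusted p = 0.00107). Of the genes whose promoters are shown above, Dnah10 (-1.93 ± 0.46) and Cfap44 (-1.79 ± 0.29) kept their calls in each leave-one-out fit, while Hydin (-1.8 ± 0.44, adjusted p = 0.0583) and Tekt1 (-1.33 ± 0.31, 0.0511) lost theirs without MG132 neurites replicate 2. The bases GTTGCC occurred, in any window of a gene, in 19 of the 50 wider-set genes with a promoter in RefSeq (38%), in 7 of 21 called and in 12 of 29 not called. They occurred in 15.3% of tested genes with a promoter, 19% of those called lower and 14.1% of all 27025 genes with one. Among the ependymal and ciliated cell markers they occurred in 0 of 3 called and 3 of 5 not called. The part of ependymal cells in these results was not tested.

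Chaperone families held calls in both directions, against 11.4% higher and 6.35% lower among all tested genes. Of 14 HSP70 and HSP110 genes, 2 were higher in neurites (Hspa4 and Hspa9) and 5 were lower (Hspa12a, Hspa13, Hspa2, Hspa4l and Hyou1), with a median of -0.49, and the lower count was 1 to 3 without any 1 of the 6 libraries and 8 with the block. Hspa1a, the stress-induced HSP70, had 539.8, 579 and 785 CPM in the 3 somas libraries and 287, 362 and 593 CPM in the 3 neurites libraries (log2 ratio of -0.62 ± 0.32, adjusted p = 0.201; 0.0217 with the block). Hspa8, the constitutive HSP70, had 490.3, 543 and 634 CPM in the 3 somas libraries and 637, 687 and 972 CPM in the 3 neurites libraries (log2 ratio of 0.46 ± 0.18, adjusted p = 0.0965; 0.0214 with the block). With the block Hspa1a was called toward somas and Hspa8 toward neurites, on total counts Hspa1a was called as well and the ratio of Hspa8 turned negative, and 54.2% and 40.9% of their windows occurred in other genes. Hspa4, an HSP110 exchange factor, had 455, 394 and 445 CPM in the 3 somas libraries and 908, 824 and 809 CPM in the 3 neurites libraries (log2 ratio of 0.97 ± 0.16, adjusted p = 0.000539). Hspa12a, a distant HSP70, had 64.4, 38.7 and 56.5 CPM in the 3 somas libraries and 23.3, 15.7 and 18.1 CPM in the 3 neurites libraries (log2 ratio of -1.50 ± 0.34, adjusted p = 0.00658). Neither overlapped between the fractions. The mitochondrial HSP70 gene Hspa9 had a ratio of 0.77 ± 0.16, near 0 on total counts.

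Among 22 genes for HSP90 and its co-chaperones, 3 were higher and 1 lower (Ttc4), with a median of 0.25, and with the block 6 were higher. On total counts the median turned to -0.55, with 0 higher and 7 lower. Without the block the shares are near those of all tested genes, and 0 were lower without MG132 neurites replicate 1, MG132 somas replicate 1 or MG132 somas replicate 3. Hsp90ab1, the constitutive cytosolic HSP90, had 1699, 1681 and 2219.8 CPM in the 3 somas libraries and 2942, 3237 and 3709 CPM in the 3 neurites libraries (log2 ratio of 0.82 ± 0.20, adjusted p = 0.0114). Cdc37, which brings kinases to HSP90, had 44.2, 44.2 and 45.8 CPM in the 3 somas libraries and 81, 94.2 and 102 CPM in the 3 neurites libraries (log2 ratio of 1.05 ± 0.23, adjusted p = 0.0047). St13, which links HSP70 and HSP90, had 135, 129 and 154 CPM in the 3 somas libraries and 233, 229 and 273 CPM in the 3 neurites libraries (log2 ratio of 0.82 ± 0.19, adjusted p = 0.00745), and its ratio was near 0 on total counts. Of 11 small HSP and BAG genes, 2 were higher (Bag1 and Hspb6) and 1 lower (Bag3), with a median of 0.27 (-0.52 on total counts). Bag3 kept its call only without MG132 neurites replicate 3 or MG132 somas replicate 1 among the leave-one-out fits, and the higher count was 1 without the latter. Bag1, an HSP70 exchange factor that can bring clients to the proteasome, had 21, 28.2 and 30.8 CPM in the 3 somas libraries and 159, 187 and 157 CPM in the 3 neurites libraries (log2 ratio of 2.65 ± 0.20, adjusted p = 1.83e-06). It had the largest ratio of the chaperone genes called, at 6.29 times. Of 39 DNAJ genes, which load clients on HSP70, 7 were higher and 4 lower, with a median of 0.29 (-0.51 on total counts, where 2 were higher and 12 lower). The lower count was 1 without MG132 somas replicate 3 and 2 without MG132 somas replicate 1 or MG132 neurites replicate 2. Dnajc2, a ribosome-bound member, had 39.5, 63.1 and 50.8 CPM in the 3 somas libraries and 201, 225 and 197 CPM in the 3 neurites libraries (log2 ratio of 2.03 ± 0.18, adjusted p = 5.47e-06). Dnajc8, linked to splicing, had 48.9, 43 and 53.2 CPM in the 3 somas libraries and 134, 151 and 159.6 CPM in the 3 neurites libraries (log2 ratio of 1.61 ± 0.17, adjusted p = 1.96e-05). Of 10 chaperonins, 3 were higher and 0 lower, with a median of 0.48 (-0.30 on total counts), and 9 were higher with the block and 1 without MG132 somas replicate 1 or MG132 neurites replicate 2. Tcp1, a subunit of the actin and tubulin folding ring, had 107, 93.4 and 124 CPM in the 3 somas libraries and 186, 216 and 213 CPM in the 3 neurites libraries (log2 ratio of 0.92 ± 0.19, adjusted p = 0.00401).

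Proteasome, ubiquitin and autophagy genes were read against 11.4% higher and 6.35% lower among all tested genes. The target of MG132 itself was represented by 47 proteasome genes, of which 15 were higher in neurites and 0 lower, with a median of 0.43 that turned to -0.34 on total counts, where 0 were higher and 3 lower. Psmd7, of the regulatory lid, had 82.4, 95.2 and 104 CPM in the 3 somas libraries and 187, 235 and 237.6 CPM in the 3 neurites libraries (log2 ratio of 1.23 ± 0.19, adjusted p = 0.000336). Psma4, of the core ring, had 67.9, 77.5 and 76.5 CPM in the 3 somas libraries and 124, 178 and 172 CPM in the 3 neurites libraries (log2 ratio of 1.09 ± 0.21, adjusted p = 0.00189). Psma3, of the same ring, had a ratio of 1.10 ± 0.23, with 21.3% of its windows shared. Of 18 ubiquitin and autophagy receptor genes, 3 were higher (Gabarap, Optn and Tax1bp1) and 0 lower, with a median of 0.20 (-0.59 on total counts). Tax1bp1, a receptor that delivers cargo to autophagosomes, had 280.3, 309 and 338 CPM in the 3 somas libraries and 495, 537 and 561 CPM in the 3 neurites libraries (log2 ratio of 0.78 ± 0.15, adjusted p = 0.00253), a ratio that turned to -0.01 on total counts.

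Targets of stress transcription factors were read against 11.4% higher and 6.35% lower among all tested genes. Of 30 ATF4 and CHOP targets, 3 were higher (Atf5, Cebpg and Nars) and 1 lower (Herpud1), with a median of -0.15, a higher share near that of all genes. The lower count was 4 with the block and 0 without MG132 neurites replicate 2, MG132 somas replicate 1 or MG132 somas replicate 3. Atf5, a transcription factor of the integrated stress response, had 25.3, 21.4 and 16.2 CPM in the 3 somas libraries and 80.3, 87.7 and 53.3 CPM in the 3 neurites libraries (log2 ratio of 1.82 ± 0.25, adjusted p = 0.000169). Nars, the asparagine tRNA ligase, had a ratio of 0.73 ± 0.17 that turned to -0.06 on total counts. Of 22 NRF2 targets, 6 were higher and 0 lower, with a median of 0.30 (-0.48 on total counts), and 3 were higher without MG132 somas replicate 1. With the block 1 was lower. Fth1, the heavy chain of the iron store ferritin, had 1707, 2197 and 2623 CPM in the 3 somas libraries and 5572, 8348 and 9323 CPM in the 3 neurites libraries (log2 ratio of 1.83 ± 0.30, adjusted p = 0.000563). Me1, malic enzyme, had 57.3, 58.7 and 67.4 CPM in the 3 somas libraries and 173, 213 and 209 CPM in the 3 neurites libraries (log2 ratio of 1.7 ± 0.24, adjusted p = 0.000207). Both were higher in each neurites library, as was the glutathione transferase Gsta4 (1.44 ± 0.22). Of 35 immediate early genes, 3 were higher (Gadd45a, Maff and Mafk) and 2 lower (Ier5 and Junb), with a median of -0.60. The lower count was 7 with the block and 1 without any 1 library but MG132 somas replicate 2. Maff, a small Maf factor, had 11.1, 14.5 and 11.2 CPM in the 3 somas libraries and 52.5, 118 and 50.2 CPM in the 3 neurites libraries (log2 ratio of 2.60 ± 0.37, adjusted p = 0.000186). Ier5, a regulator of heat shock factor HSF1, had 43, 44.6 and 44.7 CPM in the 3 somas libraries and 22.1, 20 and 21 CPM in the 3 neurites libraries (log2 ratio of -1.07 ± 0.20, adjusted p = 0.00159). Gadd45a had a ratio of 1.06 ± 0.26.

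Further groups were sterol synthesis, splicing, chromatin and matrix, read against 11.4% higher and 6.35% lower among all tested genes. The zinc finger shares lay under both, and the share of histone genes that were higher lay under the first. Of 24 cholesterol genes 0 were higher and 5 lower, with a median of -0.38, and 1 to 3 were lower without any 1 library but MG132 somas replicate 2. Of 41 SR and hnRNP splicing factors 18 were higher and 2 lower (Srrm2 and Srrm4), with a median of 0.38. On total counts the median turned to -0.41, with 0 higher and 6 lower. In the main scaling 1 was lower without MG132 neurites replicate 2, MG132 neurites replicate 3 or MG132 somas replicate 1. Hnrnpd, which binds AU-rich elements, had 107, 92.4 and 103 CPM in the 3 somas libraries and 297, 244.1 and 239.9 CPM in the 3 neurites libraries (log2 ratio of 1.37 ± 0.18, adjusted p = 0.000101). Hnrnph3 (1.44 ± 0.34) and Hnrnpa3 (1.49 ± 0.21, 27.9% of windows shared) had ratios of like size. Of 354 zinc finger genes 10 were higher and 19 lower, with a median of -0.37, and 6, 9, 11 and 8 were lower without MG132 somas replicate 1, MG132 somas replicate 3, MG132 neurites replicate 2 and MG132 neurites replicate 3, and 33 with the block. Zfp330, a nucleolar protein, had a ratio of 1.55 ± 0.30, and Zfp982, at most 5.24 CPM, one of 4.11 ± 0.85. Of 22 histone genes 2 were higher, among them the linker histone H1f0 (0.85 ± 0.18), and 0 lower, with a median of 0.48 (-0.25 on total counts), and the higher count was 4 with the block and 1 without MG132 neurites replicate 2. Of 79 collagen and matrix genes 3 were higher and 9 lower, with a median of -0.49, and the lower count was 1, 4, 3 and 5 without MG132 somas replicate 1, MG132 somas replicate 3, MG132 neurites replicate 1 and MG132 neurites replicate 2 and 20 with the block, where 7 were higher. Sparc, a matrix protein secreted by astrocytes, had 183, 254 and 211 CPM in the 3 somas libraries and 1609, 1976 and 1827 CPM in the 3 neurites libraries (log2 ratio of 3.06 ± 0.22, adjusted p = 1.83e-06).

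Calls toward somas rose with transcript length. For 13473 genes (95.0%) the length and GC content of the longest GENCODE M21 transcript were known. Of the fifth with the shortest transcripts, up to 2095 bases, 15.7% were higher in neurites and 1.26% lower, with a median log2 ratio of 0.26. Of the fifth with the longest, from 5472 bases, 9.95% were higher and 13.5% lower, with a median of -0.28, and Spearman's rho between length and ratio across genes was -0.20. By GC content, the fifth below 43.8% had 15.4% higher and 5.08% lower, and the fifth above 55.4% had 5.64% and 8.46%. Genes within a sample are not independent replicates, and these shares are descriptions. Of 79 pseudogenes, 15 were higher and 0 lower, and their reads may belong to their parent genes.

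The same ratio was read in the Ctrl cultures, from other libraries. There, 1452 genes (10.2%) were higher in neurites and 659 (4.65%) lower. Of the 1615 higher after MG132, 1015 were also called higher in Ctrl, which is 62.8% of the MG132 calls and 69.9% of the Ctrl calls. Of the 901 lower, 342 were shared, 38% and 51.9% of each list. No gene was called in opposite directions, and 49 of the higher and 26 of the lower genes had a Ctrl ratio of the other sign. Across genes the ratios correlated with r = 0.60 as a description. Ribosomal proteins had a Ctrl median of 1.63 with 52 higher, nuclear-encoded respiratory genes 0.71 with 27, and proteasome genes 0.31 with 7. Astrocyte markers had a Ctrl median of 0.16 with 7 higher, and ciliated cell markers -1.13 with 4 lower. Whether any list differed between treatments was not tested.

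**Figure D5:**
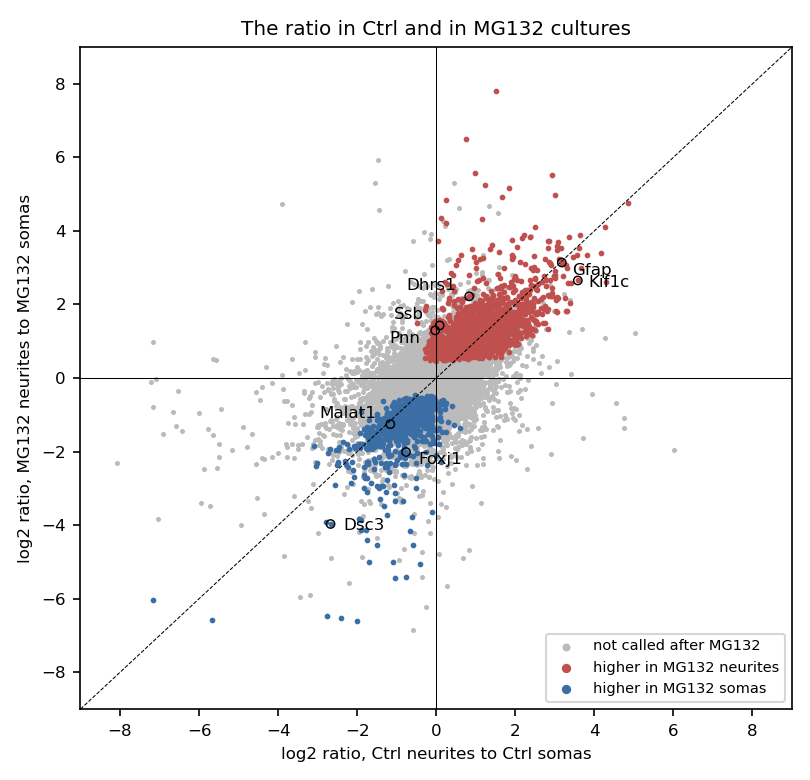
Log2 ratio of neurites to somas in Ctrl (x axis) and in MG132 cultures (y axis), 1 point per gene, coloured by the MG132 call (red higher in neurites, blue higher in somas, grey not called), with the dashed line marking equal ratios. Most called genes lie in the quadrants of equal sign, and Ssb and Pnn lie near 0 in Ctrl.

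The difference between the ratios was tested gene by gene, and 0 genes passed in either direction (0% and 0%) in edgeR, where no adjusted p was below 0.328, while 474 genes were higher and 526 lower by p under 0.05 before adjustment. With the replicate block 47 genes had a higher and 43 a lower ratio after MG132, and DESeq2 without the block called 38 and 20. Of the 5 genes with the smallest p, 3 are described, and they were chosen by this same difference. Ssb, the La protein that binds the ends of RNA polymerase III transcripts, had 110.3, 116 and 115 CPM in Ctrl somas and 114, 137 and 111 CPM in Ctrl neurites. After MG132 it had 125, 115 and 156 CPM in somas and 374, 336 and 357 CPM in neurites (difference of log2 ratios 1.34 ± 0.23, adjusted p = 0.328, or 0.00390 with the block). The fractions differed little in Ctrl and did not overlap after MG132, a pattern that the choice by smallest p favours. Dhrs1, a short-chain dehydrogenase, had 278, 255 and 277 CPM in Ctrl somas and 411, 472 and 559.6 CPM in Ctrl neurites. After MG132 its values were 81.8, 73.8 and 103 CPM in the 3 somas libraries and 345, 419 and 440.1 CPM in the 3 neurites libraries (difference 1.39 ± 0.25, adjusted p = 0.328, or 0.00348 with the block). Its somas level was about 3 times lower after MG132, with a like neurites level. Pnn, a splicing cofactor of speckles, had 69.3, 62.4 and 91.3 CPM in Ctrl somas and 65.9, 70 and 82.9 CPM in Ctrl neurites. After MG132 it reached 99.7, 91.6 and 85 CPM in the 3 somas libraries and 247.3, 217 and 214 CPM in the 3 neurites libraries (difference 1.32 ± 0.25, adjusted p = 0.328, or 0.00517 with the block).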

How the data were processed

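RNA was isolated from somas and neurites of cultured hippocampal neurons, selected for polyA and sequenced, and 3 libraries of each group were compared. The authors trimmed reads with Trimmomatic 0.38.0, aligned them as single-end reads to mm10 with STAR and counted them per gene with featureCounts 2.0.1, both at default settings, which for featureCounts ignore strand, and the deposited counts are whole numbers without normalization or a filter. Symbols and GRCm38 coordinates came from RefSeq (25275 of 27179 genes, 93.0%). Promoters came from RefSeq and transcripts from GENCODE M21.

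EdgeR 4.0.16 in R 4.3.3 was used for the tests. The 14185 genes that passed filterByExpr were scaled by TMM, and its quasi-likelihood model, with a mean for each of the 4 groups, took in all 12 libraries. Benjamini-Hochberg adjustment covered every tested gene, and a call needed an adjusted p under 0.05. A value after ± is the standard error of the log2 ratio, from the ratio and edgeR's F statistic, with n = 3 libraries per group. Depth differed between libraries by over 4 times, and precision is given by these errors. No source says that the replicates were separate cultures, so p-values measure only the spread between these libraries. Of 66 library pairs, 0 had identical counts. After subtraction of each group's mean, MG132 somas and neurites libraries of the same number had correlations of 0.165 to 0.198. The shared replicate numbers, which come from the sample titles, were therefore taken to pair the samples in the replicate block. Calls, p-values and errors given without the block come from the main model, which ignores this pairing. Dates in the library names match within each number except for MG132 neurites replicate 3. The block is given where it changed a named gene's call or moved a count by over 1.5 times.

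Named genes were, in each direction, the 10 called genes with the largest ratios at 5 CPM or more that moved alike in all 3 pairs, the 6 most abundant called genes, up to 4 called members of each of 34 gene lists at 1 CPM or more (the 2 most abundant where none was called), 6 reference genes and the 5 with the smallest p for the difference. A total of 159 genes qualified, of which the text mostly describes the more stable, plus Bc1, Dnah10, Hydin, Cfap44 and Tekt1. Stability was judged in these same libraries, so the genes described look steadier than their groups. Other symbols in the text only list called or unmeasured members of a list, or members left out as less stable. Members and lists were chosen with earlier results of these data known, and the wider cilium set was added after the values were seen. Simulations of neurites against somas after MG132 held 14185 genes, of which 200 were changed each time. At a true log2 ratio of 1 in size, 5% of the changed genes were recovered. This share was 66.5% at a ratio of 2 and 77% at 3. Unchanged genes called numbered 2, 9 and 5 in these simulations. Far fewer genes were changed there than were called in the data (1615 and 901), and the adjustment is stricter when few genes change. The shares recovered therefore do not give the share found in this comparison. A gene without a call may still differ, above all at small ratios. Alternatives were DESeq2 1.42.0, its size factors, total counts, totals without mitochondrial genes and genes above 10% of a library, other count filters, fewer libraries and the replicate block.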

Additional observations from a re-analysis of the deposited data

How the results depend on the processing

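On total counts, 300 genes were called higher and 4340 lower in MG132 neurites, and 323 and 2741 in Ctrl, and on totals without mitochondrial and dominant genes the counts were 861 and 3116, and 715 and 2832. On total counts the log2 ratios of Actb (-0.66), Hspa8 (-0.37), Hspa9 (-0.0209), Nars (-0.0649), St13 (-0.00193) and Tax1bp1 (-0.0114) were negative, as was that of Actb (-0.29) on the second scale, and 30 of the other named genes lost their calls. The cause was not tested. At the stricter threshold 290 and 72 genes were called after MG132 and 301 and 48 in Ctrl. With the replicate block, 1660 were lower after MG132 and 1316 in Ctrl, and the difference had 47 higher and 43 lower. With only the 6 libraries compared and the block, an alternative added after seeing the data, 1646 and 1595 were lower. Among the 107 named genes the block gained the calls of Camk2a, Mbp, Hspa1a and Hspa8 and changed no other call. DESeq2 called 1107 lower in Ctrl and a difference for 38 and 20, and without a count filter 9 differences were higher. When 1 library was left out, 1184 to 1561 were higher and 366 to 748 lower after MG132, 954 to 1358 higher and 427 to 613 lower in Ctrl, with fewest higher without Ctrl neurites replicate 3 and fewest lower without Ctrl somas replicate 1, and 0 to 1 differences higher and 0 lower. The standard error of the log2 ratio had a median of 0.36 over all tested genes, and the smallest ratio called was 0.46 in size.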
